A study of Mus musculus with 3 samples.

Results

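The genes described here are 10 imprinted mouse genes, most of them known for effects on growth: H19, Igf2, Cdkn1c, Phlda2, Slc22a18, Igf2r, Peg10, Sgce, Snrpn and Grb10. They were taken by name and located by Entrez gene number, and all 10 were found among the 17997 gene numbers of the deposited tables. RNA-seq was done on 3 libraries of the mouse embryonic stem cell line 46C, a line of strain 129 with a reporter at Sox1, grown in serum with LIF (leukaemia inhibitory factor) on gelatin. One library came from cells given Lef1 in the vector named PB and collected at passage 2 (Lef1 P2), 1 from Lef1 cells at passage 5 (Lef1 P5), and 1 from cells given the empty PB vector at passage 2 (empty vector P2). Lef1 encodes a TCF/LEF transcription factor, through which beta-catenin acts on Wnt target genes. The labels name neither the promoter that drove Lef1 nor whether the cells were 1 clone or a pool.

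With 1 library per condition and none repeated, differences were described by size and not tested, and a difference between conditions cannot be told apart from one between cultures. The control used here is of passage 2, so in Lef1 P5 the introduced gene and the passage cannot be told apart. The libraries held 9170554 (Lef1 P2), 9380813 (Lef1 P5) and 9225401 (empty vector P2) expected reads. Lef1 itself stood at 135 FPKM in Lef1 P2 and 214 FPKM in Lef1 P5, against 1.49 FPKM in empty vector P2 (fragments scaled to transcript length and library size). All 14 pluripotency markers, Pou5f1 and Nanog among them, were listed in each library, with summed levels between 6423 and 7166 FPKM. Most of each sum came from Dppa5a, at 3818, 3816 and 3771 FPKM in Lef1 P2, Lef1 P5 and empty vector P2. In the same order, Pou5f1 stood at 704, 1062 and 1135 FPKM and Nanog at 167, 176 and 160 FPKM. No marker of the 14 differed by 2-fold.

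An imprinted gene is transcribed mainly from the copy inherited from 1 parent, as set by DNA methylation laid down in the germ line and kept at a control region shared by neighbouring genes. Many imprinted genes act on fetal and placental growth. Igf2 is a growth factor made from the paternal copy. Igf2r, made from the maternal copy, carries it to the lysosome, and H19, Cdkn1c, Phlda2 and Grb10 are maternally expressed genes known for restraining growth. Imprints can be unstable in cultured stem cells, and a gene table does not show which copy was read.

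Besides H19 and Igf2 themselves, the H19/Igf2 cluster on chromosome 7 encodes short RNAs of its own. H19 is the host of miR-675, and an Igf2 intron holds miR-483. Neither miRNA gene had a row in the tables, so no level is given for them. Their mature sequences are shown because their hosts had the highest ratios to empty vector P2 of the 10 genes. The capitals mark the seed, bases 2 to 8, and the 4 arms have 4 different seeds (RefSeq, GRCm38.p6, minus strand of chromosome 7).
mmu-miR-675-5p: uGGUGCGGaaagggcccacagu
mmu-miR-675-3p: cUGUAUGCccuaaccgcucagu
mmu-miR-483-5p: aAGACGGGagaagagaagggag
mmu-miR-483-3p: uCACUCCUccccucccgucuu

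Promoter windows were in the RefSeq table for 6 of the 10 genes, with 13 windows in all, since Igf2, Snrpn and Grb10 have several start sites. H19, Cdkn1c, Peg10 and Sgce are named only. Each window runs from 250 bases before a start to 50 bases after it. The core motif of the TCF/LEF factors was searched on both strands in the form TTCAAAG, the form TACAAAG, the form ATCAAAG and the form AACAAAG. It occurred in 1 of the 13 windows, upstream of a Snrpn start site, and in 16.9% of all 32851 windows of the same length. The windows of the other Snrpn starts, that nearest the 3′ end of the gene among them, held no match. A match describes letters in a window and not a bound site, and its absence says nothing about more distant elements.

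The windows of Igf2 and Phlda2 are printed because these are the protein-coding genes of the 10 with the highest and the lowest ratio of Lef1 P2 to empty vector P2. They are shown with CG dinucleotides in capitals. The Snrpn window shown is the 1 with a match, and its motif is in capitals. The Igf2 window shown is that of the start nearest the 3′ end of the gene. It held 7 CG dinucleotides, and the windows of the other Igf2 starts held 2, 14 and 24. The Phlda2 window held 26, and the median of all windows was 7. Over the 13 windows the number ran from 2 to 45, the highest at a Grb10 start. The positions are chr7:142657447-142657746, chr7:143502475-143502774 and chr7:60140176-60140475, all on the minus strand of GRCm38.p6, which is not the build the authors used.
Igf2: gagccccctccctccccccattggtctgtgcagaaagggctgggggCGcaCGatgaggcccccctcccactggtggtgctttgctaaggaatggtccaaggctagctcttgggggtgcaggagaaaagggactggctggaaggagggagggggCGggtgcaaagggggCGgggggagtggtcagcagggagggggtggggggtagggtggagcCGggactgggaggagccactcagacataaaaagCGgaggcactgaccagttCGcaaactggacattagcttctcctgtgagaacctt
Phlda2: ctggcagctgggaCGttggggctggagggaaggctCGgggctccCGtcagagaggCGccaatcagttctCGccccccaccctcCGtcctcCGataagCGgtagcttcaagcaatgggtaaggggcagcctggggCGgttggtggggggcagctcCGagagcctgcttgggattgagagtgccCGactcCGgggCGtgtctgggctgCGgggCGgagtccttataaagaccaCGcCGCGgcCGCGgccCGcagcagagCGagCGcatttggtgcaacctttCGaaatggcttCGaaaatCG
Snrpn: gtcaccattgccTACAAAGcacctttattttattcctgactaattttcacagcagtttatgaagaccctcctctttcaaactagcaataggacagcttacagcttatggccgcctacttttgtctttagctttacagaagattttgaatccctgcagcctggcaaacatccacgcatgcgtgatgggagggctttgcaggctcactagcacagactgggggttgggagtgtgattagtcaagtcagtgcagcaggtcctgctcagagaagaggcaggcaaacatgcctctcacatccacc

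A gene was called higher or lower where log2((FPKM + 1) ratio) was at least 1 in size, with at least 3 FPKM and 20 expected reads in the library with more. Genes that reach this minimum are counted as tested, although the rule describes size only and is no statistical test. Values in parentheses after a level are exact Poisson 95% intervals of the reads, which cover counting error only and leave out the differences between cultures and the effect of amplified reads. Folds are plain ratios of FPKM. In bulk RNA, more cells of a kind that uses a gene and more RNA per cell cannot be told apart.

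**Figure D1:**
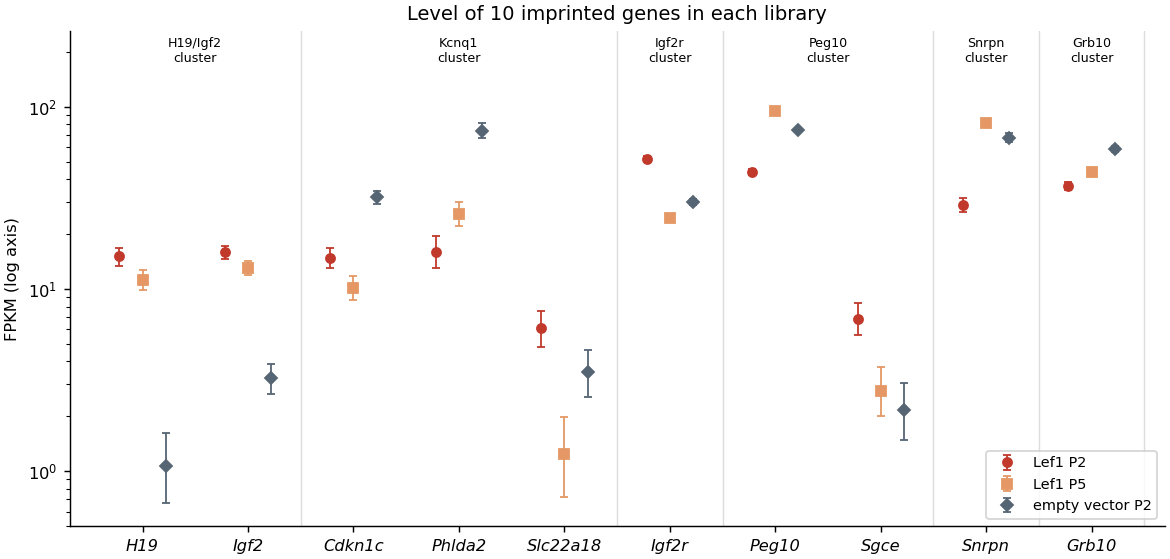
FPKM of each imprinted gene in Lef1 P2, Lef1 P5 and empty vector P2 on a log axis, grouped by imprinted cluster, 1 point per library, with 95% Poisson counting intervals as bars. H19 and Igf2 lie above the empty-vector library in both Lef1 libraries, Cdkn1c and Phlda2 below it, and Slc22a18, Igf2r, Peg10 and Snrpn on opposite sides of it at the 2 passages.

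H19 and Igf2 were higher in both Lef1 libraries. H19 (Entrez gene 14955), a maternally expressed long non-coding RNA, stood at 15.1 FPKM in Lef1 P2 (13.4 to 16.9), 11.3 FPKM in Lef1 P5 (9.86 to 12.8) and 1.07 FPKM in empty vector P2 (0.671 to 1.62). These levels rest on 308, 236 and 22 reads. H19 was 14.1-fold higher in Lef1 P2 and 10.5-fold higher in Lef1 P5 than in empty vector P2.

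Igf2 (Entrez gene 16002), the fetal growth factor, stood at 15.9 FPKM in Lef1 P2 (14.6 to 17.3), 13.01 FPKM in Lef1 P5 (11.9 to 14.2) and 3.23 FPKM in empty vector P2 (2.66 to 3.89). It was 4.91-fold and 4.03-fold higher. The deposited length of Igf2, whose row covers 3 transcripts, was 3767 bases in Lef1 P2, 3907 in Lef1 P5 and 3805 in empty vector P2, and the calls were the same with 1 common length. For both genes the Lef1 P5 level was below the Lef1 P2 level, by less than 2-fold and with intervals that did not overlap. Intervals also did not overlap for 60.1% of all tested genes in this comparison, and their median log2 ratio was -0.14. With median-of-ratios scaling the log2 ratio was -0.2 for H19 and -0.08 for Igf2, in place of -0.39 and -0.27.

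The ratio of Igf2 to H19 was lower in both Lef1 libraries. Igf2 had 1.05 times the FPKM of H19 in Lef1 P2 (0.913 to 1.21) and 1.16 times in Lef1 P5 (0.987 to 1.36), against 3.02 times in empty vector P2 (1.90 to 5.01). The third gene of the cluster on the list, Ins2, was not listed in any library.

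Endoderm markers were also higher in the Lef1 libraries. Their summed level over 24 genes was 2513 FPKM in Lef1 P2 and 735 FPKM in Lef1 P5, against 318 FPKM in empty vector P2. Of those tested, 17 of 19 were called higher in Lef1 P2 and 10 of 15 in Lef1 P5. Over all tested genes 6.49% and 1.40% were called higher. A marker could reach the minimum through the Lef1 library alone, as did Sox17 (0.57 FPKM in empty vector P2), so these counts are descriptions. The visceral endoderm and liver genes Afp and Ttr were not listed in any library. On the same list, Cubn (32.96 FPKM in Lef1 P2, against 2.68 FPKM) and Amn (16.45 FPKM, against 2.33 FPKM) were called higher in Lef1 P2. Hnf4a and Lrp2 were not called there, and Apoa1 and Apob lay under the minimum level. Fibroblast and feeder markers summed to 21.1 and 11.8 FPKM, against 21.9 FPKM, over 13 genes, of which Postn, Lum and Prrx1 were at 0 in each library. Of these, Thbs1 and Twist1 were called higher in Lef1 P2 and Thy1 lower in Lef1 P5, with log2 ratios near the threshold (1.08, 1.09 and -1.02). Trophoblast markers summed to 27.7 and 13.4 FPKM, against 17.4 FPKM, over 12 genes, with Krt7 and Esx1 called higher in Lef1 P2 and with Elf5, Tpbpa, Prl3d1 and Prl2c2 at 0. The part of these cells in the levels of the imprinted genes was not tested.

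The neighbouring Kcnq1 cluster, also on chromosome 7, had lower levels of its growth-restraining genes in the Lef1 libraries. Cdkn1c (Entrez gene 12577), an inhibitor of cyclin-dependent kinases, stood at 14.9 FPKM in Lef1 P2 (13.1 to 16.8), 10.1 FPKM in Lef1 P5 (8.68 to 11.7) and 31.9 FPKM in empty vector P2 (29.3 to 34.7). Cdkn1c was called lower in both, at 0.466 and 0.317 times the empty-vector level, though with a pseudocount of 5 the Lef1 P2 call was lost (log2 ratio -0.89).

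Phlda2 (Entrez gene 22113), a pleckstrin-homology protein known for limiting placental growth, stood at 16.0 FPKM in Lef1 P2 (13.02 to 19.5), 26.0 FPKM in Lef1 P5 (22.2 to 30.2) and 74.0 FPKM in empty vector P2 (67.4 to 81.1). It was called lower in both, at 0.217 and 0.351 times the empty-vector level. The lowest library was Lef1 P2 for Phlda2 and Lef1 P5 for Cdkn1c.

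Slc22a18 (Entrez gene 18400), a transporter gene that lies next to Phlda2, had its lowest level in Lef1 P5 and its highest in Lef1 P2. It stood at 6.07 FPKM in Lef1 P2 (4.83 to 7.53), 1.24 FPKM in Lef1 P5 (0.722 to 1.99) and 3.48 FPKM in empty vector P2 (2.56 to 4.63), from 82, 17 and 47 reads. The Lef1 P2 level was not called. The Lef1 P5 level was called lower with a log2 ratio of -1.0, at the threshold itself, and the call was lost with 7 of the 13 alternative settings, among them all 3 other scalings. Against Lef1 P2 it was called lower, at -1.66, and at -0.83 with a pseudocount of 5 that call was lost. The ratio of Phlda2 to Slc22a18 was 2.64 in Lef1 P2 (1.95 to 3.58) and 20.9 in Lef1 P5 (12.7 to 36.8), against 21.3 in empty vector P2 (15.7 to 29.4).

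Of the 9 other genes of the Kcnq1 cluster on the list, 6 were strong enough to test in Lef1 P2 against empty vector P2. None was called there, beside 6.49% of all tested genes called higher and 1.82% lower. At such shares none of 6 is not read as a contrast with Cdkn1c and Phlda2. The tetraspanin gene Cd81 stood at 190 FPKM in Lef1 P2 and 135 FPKM in Lef1 P5, against 183 FPKM in empty vector P2. Kcnq1ot1, the paternally expressed non-coding RNA of the cluster, stood at 3.58 and 6.75 FPKM, against 4.76 FPKM. It overlaps Kcnq1 in antisense, whether the counting used strand is not stated, and its counts were not whole. Osbpl5, an oxysterol-binding protein gene, was called lower in Lef1 P5 (1.25 FPKM) against Lef1 P2 (3.62 FPKM). Its log2 ratio of -1.04 lay near the threshold, and the call was not checked under other scalings. The trophoblast factor gene Ascl2 stood at 3.80 and 4.24 FPKM, against 6.20 FPKM.

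Igf2r (Entrez gene 16004), on chromosome 17, stood at 51.9 FPKM in Lef1 P2 (50.3 to 53.5), 24.6 FPKM in Lef1 P5 (23.6 to 25.7) and 30.0 FPKM in empty vector P2 (28.8 to 31.2). Lef1 P2 was thus the highest library and Lef1 P5 the lowest, and neither differed from empty vector P2 by 2-fold. Lef1 P5 was called lower than Lef1 P2, at 0.475 times its level, but not with median-of-ratios or TMM scaling, where the log2 ratio was -0.85 and -0.87, nor with a pseudocount of 5 (-0.94). Airn, the antisense RNA that silences the paternal copy of Igf2r, had 8 reads in Lef1 P2 (1.00 FPKM) and was not listed in the other libraries. Without strand, reads of the 2 genes cannot be told apart where they overlap. The receptor gene Mas1 of the same region was not listed in any library.

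The level of the receptor relative to its ligand was lower in both Lef1 libraries. Igf2r had 3.27 times the FPKM of Igf2 in Lef1 P2 (2.99 to 3.58) and 1.89 times in Lef1 P5 (1.71 to 2.10), against 9.29 times in empty vector P2 (7.69 to 11.3).

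Peg10 and Sgce are paternally expressed genes on chromosome 6, transcribed in opposite directions from neighbouring starts, and the ratio of Peg10 to Sgce was lowest in Lef1 P2. Peg10 (Entrez gene 170676), a gene derived from a retrotransposon and needed for the placenta, stood at 43.9 FPKM in Lef1 P2 (42.2 to 45.6), 95.1 FPKM in Lef1 P5 (92.6 to 97.5) and 74.7 FPKM in empty vector P2 (72.5 to 76.9). Sgce (Entrez gene 20392), which encodes epsilon-sarcoglycan, stood at 6.87 FPKM in Lef1 P2 (5.61 to 8.32), 2.76 FPKM in Lef1 P5 (2.00 to 3.72) and 2.16 FPKM in empty vector P2 (1.49 to 3.03).

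Sgce was called higher in Lef1 P2 than in empty vector P2, by 3.18-fold, while Peg10 was at 0.588 times the empty-vector level and not called. In Lef1 P5 against Lef1 P2, Peg10 was called higher (2.17-fold) and Sgce lower (0.402 times). The ratio of Peg10 to Sgce was 6.39 in Lef1 P2 (5.25 to 7.85) and 34.4 in Lef1 P5 (25.5 to 47.6), against 34.6 in empty vector P2 (24.6 to 50.3). Both Sgce calls were lost with a pseudocount of 5, where the log2 ratio was 0.73 in Lef1 P2 against empty vector P2 and -0.61 in Lef1 P5 against Lef1 P2, and with a minimum of 10 FPKM or a 4-fold threshold. The call in Lef1 P5 against Lef1 P2 was also lost under median-of-ratios (-0.90), TMM (-0.92) and quantile scaling (-0.76). Sgce was under 3 FPKM in both Lef1 P5 and empty vector P2, so it was not tested there, and its intervals overlapped. Among the other genes of this cluster, Ppp1r9a, a neuronal scaffold gene, stood at 5.30 and 5.56 FPKM, against 6.80 FPKM. Only 2 or 3 of these other genes could be tested, depending on the comparison, and none was called. Over all tested genes, 1.28% to 6.86% were called by comparison and direction, so this count is not read as a contrast.

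**Figure D2:**
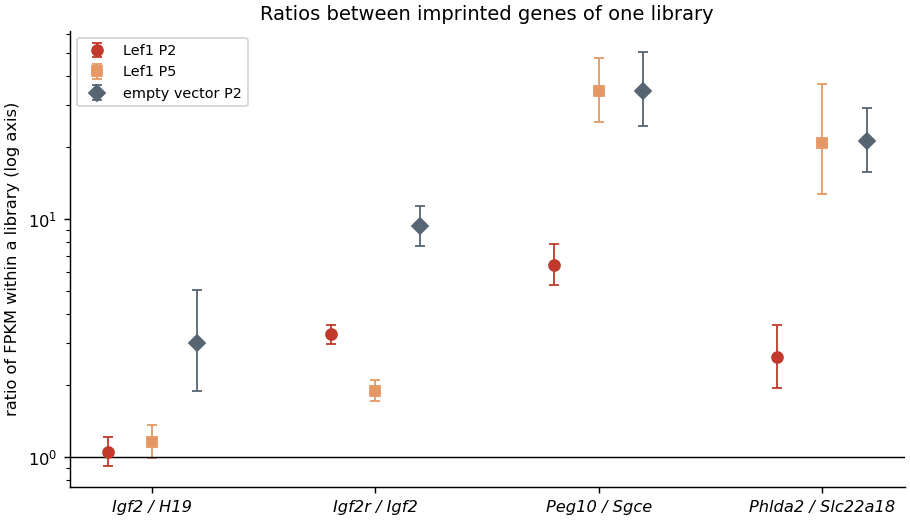
Ratio of the FPKM of one imprinted gene to that of another within the same library, on a log axis, for Lef1 P2, Lef1 P5 and empty vector P2, with 95% counting intervals as bars. Peg10 to Sgce and Phlda2 to Slc22a18 are lowest in Lef1 P2 (6.39 and 2.64), while Igf2 to H19 is near 1 in both Lef1 libraries.

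Snrpn (Entrez gene 20646), a paternally expressed gene for a splicing protein on chromosome 7, stood at 29.1 FPKM in Lef1 P2 (26.6 to 31.7), 81.8 FPKM in Lef1 P5 (77.6 to 86.0) and 67.8 FPKM in empty vector P2 (64.0 to 71.8). It was called lower in Lef1 P2 than in empty vector P2, at 0.429 times its level, and higher in Lef1 P5 than in Lef1 P2, by 2.81-fold. Its expected counts were 509.36, 1471.56 and 1199.11, the only ones of the 10 genes that were not whole. Snurf, an upstream reading frame on the same transcripts, has a row of its own with counts that were not whole either, at 6.66 FPKM in Lef1 P2 and 10.7 FPKM in Lef1 P5, against 9.22 FPKM in empty vector P2. The sources do not state how reads shared by these genes were divided, so the level of Snrpn is less certain than its interval shows.

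Of the 7 other genes of the Snrpn cluster on the list, 4 could be tested in each comparison, and none was called. Over all tested genes, 1.28% to 6.86% were called by comparison and direction, so this count is not read as a contrast. The ubiquitin ligase gene Ube3a stood at 18.1 and 21.9 FPKM, against 25.1 FPKM, the neuronal growth suppressor gene Ndn at 3.84 and 4.33 FPKM, against 2.65 FPKM, and Mkrn3 at 3.96 and 3.86 FPKM, against 3.97 FPKM, in Lef1 P2, Lef1 P5 and empty vector P2 in that order. Magel2, Peg12 and Atp10a were under 3 FPKM in each library.

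Grb10 (Entrez gene 14783), on chromosome 11, encodes an adaptor that dampens signalling from the insulin and IGF1 receptors. It stood at 36.8 FPKM in Lef1 P2 (35.1 to 38.6), 43.9 FPKM in Lef1 P5 (42.1 to 45.9) and 59.0 FPKM in empty vector P2 (56.8 to 61.3). Both Lef1 libraries were below empty vector P2, by less than 2-fold, and Grb10 was called in no comparison. Of its neighbours, Ddc, the gene of aromatic amino acid decarboxylase, was called higher in Lef1 P5 (6.46 FPKM) against Lef1 P2 (2.46 FPKM) and stood at 3.57 FPKM in empty vector P2. The actin nucleator gene Cobl stood at 22.5 and 19.8 FPKM, against 33.9 FPKM.

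Counted together for Lef1 P2 against empty vector P2, 3 of the 10 genes were called higher (H19, Igf2 and Sgce) and 3 lower (Phlda2, Snrpn and Cdkn1c). Over all 10651 tested genes 6.49% were called higher and 1.82% lower. The median log2 ratio of the 10 genes was 0.00, beside 0.09 over all tested genes, and the single ratios ran from -2.14 for Phlda2 to 2.96 for H19. All 10 had counting intervals that did not overlap, as did 57.1% of all tested genes. Under median-of-ratios scaling 502 genes were higher and 304 lower, in place of 691 and 194 as deposited, and the median of all genes moved by -0.15; the calls of the 10 genes were the same.

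For Lef1 P5 against empty vector P2, 9 of the 10 genes could be tested, 2 were called higher (H19 and Igf2) and 3 lower (Cdkn1c, Phlda2 and Slc22a18). Over all 10121 tested genes 1.40% were called higher and 1.28% lower. The median over all 10 genes, untested Sgce included, was -0.01, that over the 9 tested was -0.27, and that over all tested genes was -0.02. Counting intervals did not overlap for the 9 genes tested and for 36.8% of all. These comparisons share the empty-vector library, so their values are given side by side and not as independent results.

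For Lef1 P5 against Lef1 P2, 2 genes were called higher (Snrpn and Peg10) and 3 lower (Slc22a18, Sgce and Igf2r), with 1.88% higher and 6.86% lower over all 10593 tested genes. The median was -0.33 for the 10 genes and -0.14 for all. All 10 had intervals that did not overlap, as did 60.1% of all tested genes. Under median-of-ratios scaling the median of all genes moved by 0.19, with 380 genes higher and 450 lower in place of 199 and 727, and Igf2r and Sgce were no longer called. Of 19 endoderm markers tested here, 15 were called lower in Lef1 P5 and 0 higher, and their part in the levels of these genes was not tested.

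**Figure D3:**
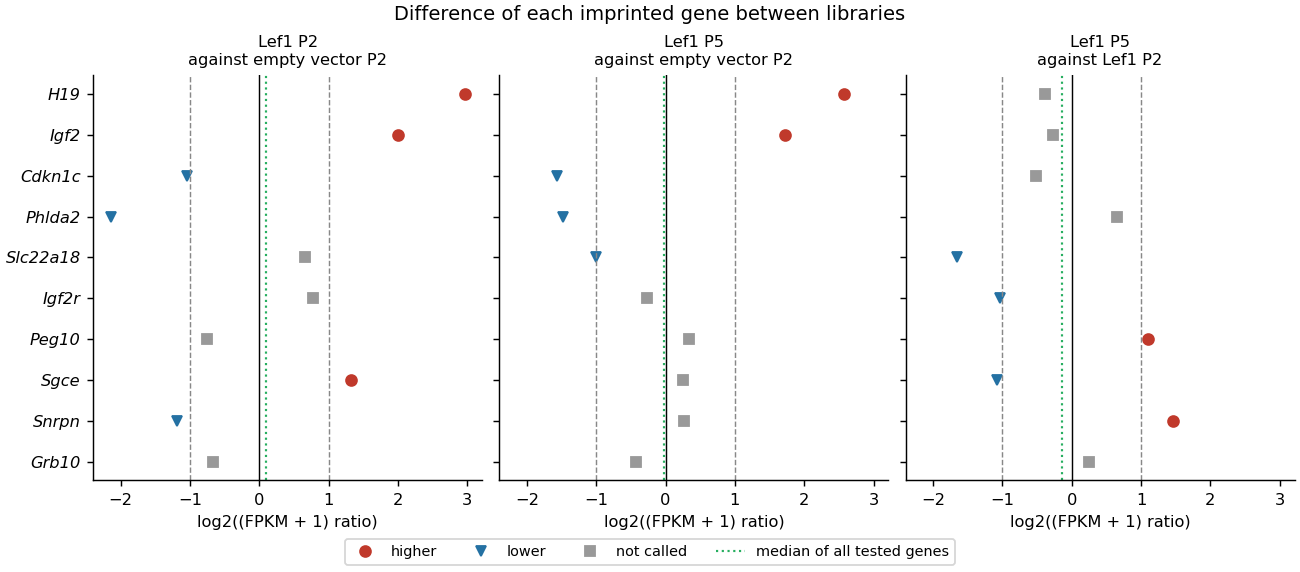
log2((FPKM + 1) ratio) of each imprinted gene in the 3 comparisons, with dashed lines at 2-fold and a dotted line at the median of all tested genes (0.09, -0.02 and -0.14). H19 and Igf2 are to the right of the upper line against empty vector P2 at both passages, and no gene changed sign under any scaling tried; Sgce was under the minimum level in the middle panel.

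The genes were also counted by the parental copy each is known to be read from where it is imprinted. The levels do not show which copy was read in these cells, for Igf2r or any other gene. Of the 6 maternally expressed genes (H19, Igf2r, Cdkn1c, Phlda2, Slc22a18 and Grb10), 1 was called higher and 2 lower in Lef1 P2 against empty vector P2, 1 higher and 3 lower in Lef1 P5 against empty vector P2, and 0 higher and 2 lower in Lef1 P5 against Lef1 P2. Of the 4 paternally expressed genes (Igf2, Peg10, Sgce and Snrpn), 2 were called higher and 1 lower in the first of these comparisons, 1 and 0 in the next, and 2 and 1 in Lef1 P5 against Lef1 P2. Over all tested genes, the shares called higher and lower were 6.49% and 1.82%, 1.40% and 1.28%, and 1.88% and 6.86% in the same order, and groups of this size do not allow a reading against them.

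The order of the levels also differed by library. In Lef1 P2 the 10 genes spanned 8.55-fold, from Slc22a18 to Igf2r, and Phlda2, Igf2, H19 and Cdkn1c lay within overlapping intervals between 14.9 and 16.0 FPKM. In Lef1 P5 they spanned 76.7-fold, from Slc22a18 to Peg10, and the overlapping neighbours were Phlda2 with Igf2r, Igf2 with H19 and H19 with Cdkn1c. In empty vector P2 they spanned 69.8-fold, from H19 to Peg10. There Peg10, Phlda2 and Snrpn overlapped in turn, as did Cdkn1c and Igf2r, and Slc22a18, Igf2, Sgce and H19. Summed over the 10 genes the level was 237 FPKM in Lef1 P2, 310 FPKM in Lef1 P5 and 347 FPKM in empty vector P2.

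A list of 62 other genes of imprinted regions, 32 from the same clusters and 30 from elsewhere, had 32 genes that could be tested in Lef1 P2 against empty vector P2 and 31 in Lef1 P5 against empty vector P2, and none was called in either comparison. Their median log2 ratios were -0.03 and -0.02. Over all tested genes, 6.49% were called higher and 1.82% lower in the first comparison, and 1.40% and 1.28% in the second. At such shares a list of this size would hold few called genes or none, so its count is not read as a contrast. In Lef1 P5 against Lef1 P2, Ddc and Zdbf2 were called higher and Osbpl5 lower of 32 tested. Their log2 ratios of 1.11, 1.06 and -1.04 lay near the threshold and were not checked under other scalings. There, 1.88% of all tested genes were called higher and 6.86% lower. The 10 genes were chosen with earlier results of these data known, so the share called among them is a description and not a test.

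**Figure D4:**
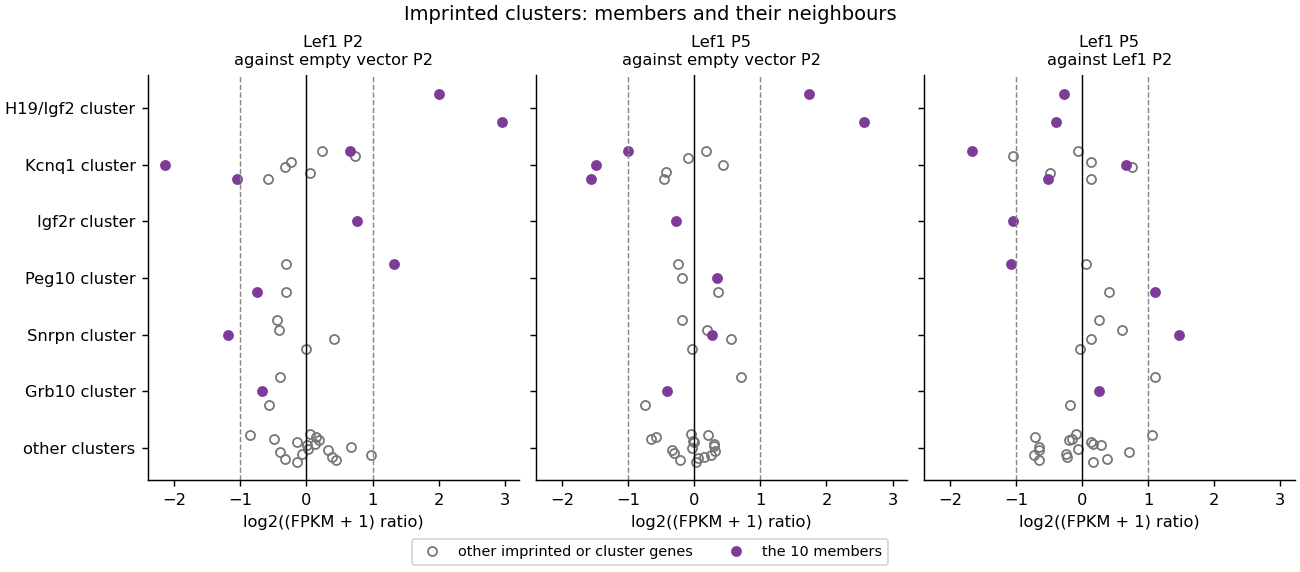
log2((FPKM + 1) ratio) of every tested gene by imprinted cluster in the 3 comparisons, with the 10 genes as filled points, other listed genes as open points and dashed lines at 2-fold. In both comparisons with empty vector P2 all open points lie between the lines.

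In a list of IGF pathway genes and CDK inhibitors, 1 gene was called against empty vector P2, and it encodes an mRNA-binding protein. The 32 listed genes were for ligands, receptors, IGF binding proteins, IGF mRNA-binding proteins, adaptors and CDK inhibitors. Of these, 23 could be tested in Lef1 P2 against empty vector P2, and 1 was called higher and 0 lower. That gene was Igf2bp2, an RNA-binding protein named for binding Igf2 mRNA, at 75.5 FPKM in Lef1 P2 and 62.2 FPKM in Lef1 P5, against 35.7 FPKM in empty vector P2. Its log2 ratio of 1.06 in Lef1 P2 lay near the threshold, and its call was not checked under other scalings. Its relatives Igf2bp1 (33.0 and 52.5 FPKM, against 40.5 FPKM) and Igf2bp3 (15.9 and 20.7 FPKM, against 14.9 FPKM) were not called. None of 23 was called in Lef1 P5 against empty vector P2. Over all tested genes, the shares called higher and lower were 6.49% and 1.82% in Lef1 P2 and 1.40% and 1.28% in Lef1 P5.

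The signalling receptor of IGF2, Igf1r, stood at 4.26 FPKM in Lef1 P2 and 2.63 FPKM in Lef1 P5, against 5.50 FPKM in empty vector P2, and Insr at 3.74 and 2.05 FPKM, against 3.05 FPKM. Neither was called. The second ligand, Igf1, had 103, 17 and 2 reads in Lef1 P2, Lef1 P5 and empty vector P2, at 2.01, 0.33 and 0.03 FPKM, and lay under the minimum level. Among the binding proteins, which hold IGFs outside the cell, Igfbp2 was the most abundant at 373 and 243 FPKM, against 321 FPKM. Igfbp4 stood at 8.80 and 3.80 FPKM, against 4.09 FPKM, and was called lower in Lef1 P5 against Lef1 P2. That log2 ratio of -1.03 lay near the threshold, and the call was not checked under other scalings. Igfbp3 stood at 2.28 and 3.55 FPKM, against 4.69 FPKM. Igfbp5, Igfbp6 and Igfbp7 were under 2 FPKM in each library, and Igfbp1 was not listed.

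Cdkn1c was called lower in both Lef1 libraries against empty vector P2, in Lef1 P2 with a log2 ratio near the threshold (-1.05). Cdkn1a, its p53-responsive relative, stood at 65.8 FPKM in Lef1 P2 and 33.5 FPKM in Lef1 P5, against 55.3 FPKM in empty vector P2, and Cdkn1b at 29.4 and 16.5 FPKM, against 15.9 FPKM. Of the 6 other CDK inhibitor genes listed, 5 could be tested in each Lef1 library against empty vector P2. In Lef1 P5 against Lef1 P2, 4 could be tested. None was called in any comparison. Over all tested genes, 1.28% to 6.86% were called by comparison and direction, so none among so few is not read as a contrast with Cdkn1c.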

How the data were processed

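RNA-seq gene tables of 3 libraries, 1 per group, were used. The submitters' processing notes name the aligner Bowtie (version 0.12.2) and the mm8 genome build. The sources used here name no counting program and no strand setting. Each deposited table gives, per the file headers, an expected count, a length and an FPKM value per Entrez gene number. Expected counts were not whole in 8.49% to 8.61% of the listed genes. A gene with no row was taken as 0. At this depth, 3 reads on 1 kb amount to 0.320 to 0.327 FPKM.

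Symbols came from RefSeq (GRCm38.p6), which matched 17951 of 17997 numbers and 185 of 186 list genes. The build differs from mm8, so gene coordinates are not printed, and printed positions belong to the RefSeq sequences.

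Ratios used the FPKM as deposited with a pseudocount of 1, across all genes, which understates the change of low genes. Intervals came from the deposited expected counts by scipy 1.17.1. TMM (trimmed mean of M values) factors came from edgeR 4.0.16 on rounded expected counts. The ratio step was run on simulated Poisson counts with known changes larger than 2-fold in well-covered genes. These counts held no spread between cultures, and they do not bear on calls near 2-fold or on genes with few reads. The alternatives tried were a pseudocount of 0.1 or 5, a minimum of 1 FPKM, of 10 FPKM or none, 3 other scalings (median-of-ratios, TMM and quantile), CPM (reads scaled to library size, without length), a common length, thresholds of 1.5-fold and 4-fold, and non-overlapping intervals. The 10 genes and the lists were chosen with earlier results of these data known. All 10 are named; other list genes are named where called, where they neighbour one of the 10, or as IGF receptors, ligands or binding proteins, and further names were chosen after their values were seen.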

Additional observations from a re-analysis of the deposited data

Results flagged for a closer look

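Of the 10 imprinted genes, 4 lay on opposite sides of empty vector P2 in the Lef1 libraries, each time with counting intervals that did not overlap. Intervals did not overlap for 57.1% of all tested genes in Lef1 P2 and for 36.8% in Lef1 P5, each against empty vector P2. Intervals that do not overlap are thus common in either direction. The share of all genes that lay on opposite sides was not counted. The log2((FPKM + 1) ratio) of Slc22a18 was 0.66 in Lef1 P2 and -1.0 in Lef1 P5, each against empty vector P2. For Igf2r it was 0.77 in Lef1 P2 and -0.27 in Lef1 P5, for Peg10 -0.75 and 0.34, and for Snrpn -1.19 and 0.27. The difference between the passages was not tested, since each is 1 library and both are set against the same empty-vector library.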

How the results depend on the processing

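Of the 13 alternative settings, 7 alter the ratio itself and the others alter only the call. None of the 210 ratios of the 10 genes under those 7 changed sign over the 3 comparisons, and 37 of 390 calls under all 13 differed. For Lef1 P2 against empty vector P2, 6 genes were called, against 10 with a 1.5-fold and 2 with a 4-fold threshold. For Lef1 P5 against empty vector P2, 5 were called, against 1 with a 4-fold threshold. For Lef1 P5 against Lef1 P2, 5 were called, against 2 with a pseudocount of 5, 3 with a minimum of 10 FPKM, 3 with median-of-ratios scaling, 3 with TMM scaling and 0 with a 4-fold threshold. The cause was not tested, beyond what a stricter threshold or minimum sets by construction. Over all genes, 885, 272 and 926 were called in the comparisons in that order, against 328, 67 and 281 with a pseudocount of 5, 478, 116 and 503 with a minimum of 10 FPKM, 1506, 545 and 1547 with CPM, 2719, 1038 and 2961 at 1.5-fold and 115, 24 and 47 at 4-fold; with a pseudocount of 0.1 the second was 414. TMM scaling gave 509 higher and 305 lower genes in the first and 362 and 473 in the third, and quantile scaling 462 and 314 and 282 and 410. With 22 reads for H19 in empty vector P2 and 17 for Slc22a18 in Lef1 P5, depth limits these folds most. No paired analysis was possible because each group has 1 library.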

Other observations

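A list of 20 genes for keeping or removing DNA methylation and silencing marks at imprints ran from 2.24 FPKM (Tet3 in Lef1 P5) to 716 FPKM (Trim28 in Lef1 P5). None of the 20 tested in Lef1 P2 and of the 19 tested in Lef1 P5 was called against empty vector P2, with median log2 ratios of -0.31 in Lef1 P2 and 0.05 in Lef1 P5. In Lef1 P5 against Lef1 P2, 2 were called higher, Trim28 (log2 ratio 1.02) and Dnmt3b (1.14), beside 1.88% of all tested genes. Both lay near the threshold and were not checked under other scalings. Against empty vector P2, 6.49% of all tested genes were called higher and 1.82% lower in Lef1 P2. In Lef1 P5 these shares were 1.40% and 1.28%. Trim28, the co-repressor recruited to imprinted control regions, stood at 716 FPKM in Lef1 P5 and 354 FPKM in Lef1 P2, and at 621 FPKM in empty vector P2. Dnmt3b, a DNA methyltransferase gene, stood at 145 FPKM in Lef1 P5 and 65.6 FPKM in Lef1 P2, and at 89.0 FPKM in empty vector P2. Zfp57, the zinc-finger protein that binds methylated control regions, was chosen after its values were seen, and stood at 168 FPKM in Lef1 P2 and 188 FPKM in Lef1 P5, against 217 FPKM in empty vector P2.

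The maternally expressed non-coding RNAs of the Dlk1-Dio3 region, named here after their values were seen, were abundant in all libraries. Meg3 stood at 119 FPKM in Lef1 P2 and 75.1 FPKM in Lef1 P5, against 95.2 FPKM in empty vector P2. Rian stood at 54.2 and 59.2 FPKM, against 59.6 FPKM, and Mirg at 7.66 and 7.27 FPKM, against 7.50 FPKM. The paternally expressed gene Dlk1 was under 1 FPKM in each library. Zdbf2, a paternally expressed gene of another region, stood at 11.8 FPKM in Lef1 P5 and 5.16 FPKM in Lef1 P2, and at 10.2 FPKM in empty vector P2.

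Genes with the most similar pair of log2 ratios against empty vector P2 (Euclidean distance over the 3 libraries) were found for 4 of the imprinted genes. For H19 these were Trpm1 (distance 0.194), Pdgfra (0.386) and Nostrin (0.437). For Igf2 they were Gm20594 (0.0992), Slc25a48 (0.244) and Nefm (0.248). For Cdkn1c they were Acot1 (0.0879), Fgd5 (0.130) and Gngt2 (0.149), and for Phlda2 they were Actn3 (0.119), Ifitm1 (0.154) and Crmp1 (0.369). Nostrin, Slc25a48 and Nefm stood at 10.97, 3.26 and 3.56 FPKM in Lef1 P2. In empty vector P2 they stood at 0.25, 0.23 and 0.27 FPKM, under the level of 3 reads on 1 kb (0.325 FPKM). The pseudocount of 1 sets much of such ratios, so a small distance does not mean a similar plain fold. With 3 libraries and many genes, such likeness is a description of these values only.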
